A study of Mus musculus with 12 samples.

Results

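Palladin, its muscle relatives and the proteins that share its actin scaffold were examined in the thoracic aorta of mice with interference in PPARγ signalling. The 9 genes were Palld, its relatives Mypn and Myot, the α-actinins Actn1, Actn2 and Actn4, and the partners Lasp1, Lpp and Eps8, out of 19687 genes with a row of their own. The group was built around Palld, which was chosen by its difference between these same groups, so its values are given as a description with no test. The other 8 were listed for their known roles, with earlier results of these arrays known. Every row of Palld was used, 3 in all, and for each other gene the row with the highest mean over 12 arrays, which made 11 rows of 101175.

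Each array held the aortic RNA of 1 male C57BL/6 mouse, and no animals were pooled. The 7 transgenic mice carried human PPARγ with the P467L mutation, a dominant-negative form of this nuclear receptor, under a promoter of smooth muscle (that of its myosin heavy chain). The 5 controls were nontransgenic littermates without that transgene. No drug treatment and no age is given in the labels. All values are log2 intensities from Affymetrix mouse exon arrays, where a difference of 1 is a doubling.

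Palladin is an immunoglobulin-domain scaffold that bundles actin filaments and anchors α-actinin in the dense bodies and stress fibres of smooth muscle and fibroblasts. Myopalladin and myotilin, its closest relatives, hold the same place at the Z-disc of striated muscle. Palld is known to give several protein isoforms from separate start sites, of which the longest belongs mainly to striated muscle.

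Markers of smooth muscle were bright on all arrays, with Acta2, Myh11 and Cnn1 between 11.52 and 12.08 and Tagln between 9.36 and 9.71. None of these 4 passed the test between the groups (limma adjusted p under 0.05), and 0 of 12 measured smooth muscle markers did. Over all genes 48 of 19687 passed (0.244%), so a count of 0 among so few says little. Markers of skeletal muscle stood out in a single library, P467L replicate 4, where 13 of 15 measured markers had their highest value. Its skeletal marker score, the mean deviation of those genes from their average, was 2.18, against -0.39 to 0.21 on the other 11 arrays. The differences of Mypn, Myot, Actn2, Neb and Fhl2, which had their highest value in this library, are given with and without it. Background was set at 5.18, the 95th percentile of the means of 919 olfactory and vomeronasal receptor genes. Above it in each group were 8 of 9 measured brown adipocyte markers and 7 of 11 measured cardiac markers. The brown adipocyte score ran from -0.42 to 0.65 in nontransgenic and from -0.71 to 0.43 in P467L mice.

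The start sites of Palld are shown because its 3 rows did not differ by the same amount, and the sources used here do not say which start each row reports. RefSeq (GRCm38.p6) places 3 starts on the minus strand of chromosome 8. They are 142618 bases apart between the first and the second, and 168950 between the second and the third. Each line runs 5′ to 3′ from 250 bases before to 50 after a start, with matches to the searched motifs in capitals.
Palld start 1, chr8:61902658-61902957: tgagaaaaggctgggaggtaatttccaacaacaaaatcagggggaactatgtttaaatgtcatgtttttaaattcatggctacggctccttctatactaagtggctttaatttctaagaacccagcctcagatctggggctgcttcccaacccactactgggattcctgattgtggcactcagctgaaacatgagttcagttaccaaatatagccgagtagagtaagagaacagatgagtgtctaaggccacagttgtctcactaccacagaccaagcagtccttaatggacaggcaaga
Palld start 2, chr8:61760040-61760339: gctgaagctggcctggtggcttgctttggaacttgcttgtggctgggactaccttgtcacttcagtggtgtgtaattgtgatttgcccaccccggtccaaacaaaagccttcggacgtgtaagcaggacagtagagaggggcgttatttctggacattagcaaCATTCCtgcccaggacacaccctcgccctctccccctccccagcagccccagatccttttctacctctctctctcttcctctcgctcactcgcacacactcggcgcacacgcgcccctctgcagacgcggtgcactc
Palld start 3, chr8:61591090-61591389: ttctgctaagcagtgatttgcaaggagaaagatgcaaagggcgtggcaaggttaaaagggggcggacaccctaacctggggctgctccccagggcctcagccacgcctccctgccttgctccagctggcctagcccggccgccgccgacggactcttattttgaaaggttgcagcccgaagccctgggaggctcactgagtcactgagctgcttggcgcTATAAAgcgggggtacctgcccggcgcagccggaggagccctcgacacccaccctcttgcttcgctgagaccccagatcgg

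The first start had a GC content of 44.0% with 2 CpG sites, while the second had 57.7% with 13 and the third 63.0% with 17. Over 32851 promoters of this length the median was 52.7% with 7 CpG sites. Motifs were searched on both strands. TATAAA, the TATA box, began 31 bases before the third start and is found in 13.6% of all these promoters. CATTCC, the core of the element bound by TEAD factors, began 87 bases before the second start and occurs in 14.7%. AGGTCA, the half-site of nuclear receptors, and the CArG box of serum response factor, which 16.3% and 1.63% of promoters hold, had no match in these 3 windows. The searched motifs did not overlap one another in the Palld windows.

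In all 3 Palld rows every P467L mouse lay above every nontransgenic mouse, a separation seen in 0.726% of all genes. Since Palld was chosen for this contrast, nothing is read from that share. The brightest row of the controls read 8.81, 9.30, 9.37, 9.62 and 9.19 in replicates 1 to 5. The P467L levels were 10.46, 10.70, 10.19, 11.09, 10.71, 10.94 and 11.12 in replicates 1 to 7. The lowest P467L mouse thus stood 0.58 above the highest nontransgenic mouse. The means were 9.26 ± 0.30 (SD, n = 5) and 10.75 ± 0.34 (SD, n = 7), a log2 difference of 1.49 or 2.81-fold, which was the rank 3 rise among 19687 genes.

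The second row of Palld had a similar difference with a wider spread between P467L mice. Its nontransgenic levels ran from 6.56 through a median of 6.95 to 7.37, and its P467L levels were 8.28, 7.51, 8.01, 9.04, 8.85, 9.21 and 9.11. P467L replicate 2 came within 0.14 of the highest nontransgenic mouse, and the other 6 lay further away. The means were 6.99 ± 0.30 (SD, n = 5) and 8.57 ± 0.65 (SD, n = 7), a difference of 1.58 or 2.99-fold.

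The dimmest row lay around background in the controls. Its nontransgenic levels were 5.11, 5.16, 5.26, 5.27 and 4.91, and its P467L levels ran from 5.66 through a median of 5.83 to 6.11. The groups were 0.40 apart at their nearest mice. The mean rose from 5.14 ± 0.15 (SD, n = 5) to 5.85 ± 0.13 (SD, n = 7), a difference of 0.71 or 1.64-fold. A level so near background can understate a fold, because the array's own background can be part of the value. Whether it did so in this row was not tested.

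**Figure D1:**
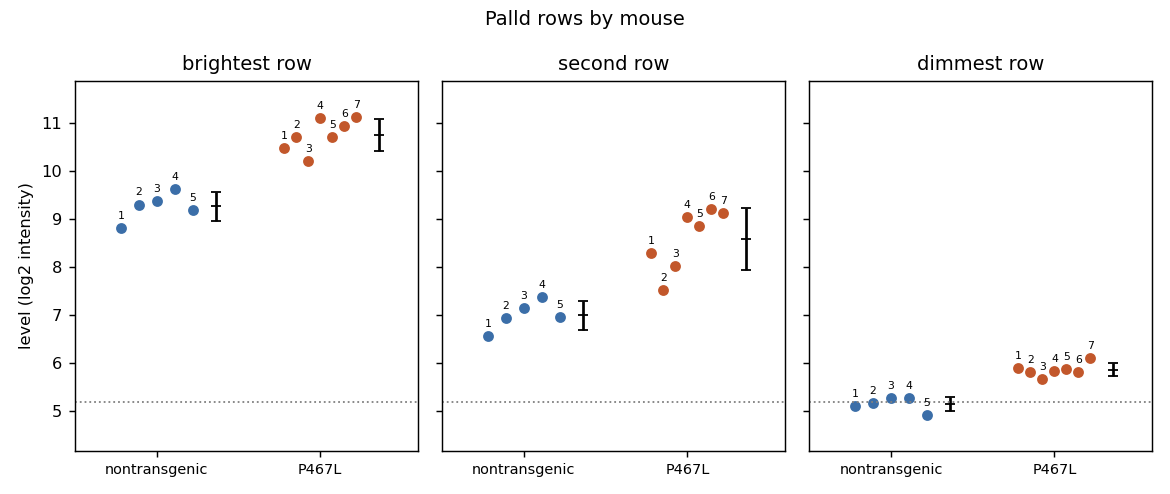
Level of the 3 Palld rows (log2 intensity, vertical axis) in each mouse by group, with the replicate number above each point. Black bars are mean ± SD, and the dotted line is the background level of 5.18. In each row all 7 P467L mice lie above all 5 nontransgenic mice.

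The rows that share a symbol may not report the same strand. RefSeq places Palld on the minus strand, and the 10 named rows numbered nearest to the dimmest row all belong to minus-strand genes of chromosome 8. The 10 named rows nearest to the brightest row, and likewise to the second, all belong to plus-strand genes of that chromosome. Over the array, 11086 named rows had 10 nearest rows all on 1 strand and chromosome, and 97.0% of them carried a gene of that same strand. For the rows of Actn1, Actn2, Actn4, Lasp1, Lpp and Mypn, the gene's strand and that of the neighbouring rows matched. No source used here gives the strand of the probes. The larger differences of 1.49 and 1.58 may not belong to the sense transcript, and the sense-strand value may be the 0.71 of the dimmest row.

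The 3 rows of Palld varied together from mouse to mouse to unlike degrees, which does not show whether they report the same transcript. Their deviations from the group means correlated with r = 0.74 between the brightest and second row, 0.60 between the brightest and dimmest, and 0.45 between the second and dimmest, over 12 arrays that all rows share. Among mice of the same replicate number the P467L mouse was higher in all 5 pairs and in all 3 rows. The smallest pair difference of the brightest row was 0.82, in replicate 3, and the largest 1.66, in replicate 1. For the second row the pairs ranged from 0.58 to 1.90, and for the dimmest from 0.40 to 0.95. Without the library with high skeletal muscle markers, P467L replicate 4, the brightest row differed by 1.43. Leaving out any 1 array kept the difference between 1.38 and 1.58 in the brightest row, 1.47 and 1.76 in the second, and 0.65 and 0.74 in the dimmest.

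Among the palladin relatives and partners, none of the 8 genes passed limma's test at an adjusted p under 0.05, against 48 of all 19687 genes (0.244%; 0.117% higher and 0.127% lower). In none of them did the 2 groups separate, where 0.726% of all genes did, so both counts of 0 among 8 say little. At an unadjusted p under 0.05 there was 1 of 8, Actn2, where 4.82% of all genes passed. The median of their 8 differences was 0.00, as was that of all genes, and 4 were positive and 4 negative. The limma adjusted p of each of the 8 was 0.999.

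Mypn, which encodes myopalladin, an anchor of nebulin and α-actinin at the Z-disc, lay below background on every array. Levels in the 5 nontransgenic mice were 3.70, 3.72, 3.48, 3.44 and 3.41, and P467L levels ran from 3.34 through 3.51 to 3.82. The groups overlapped throughout, and the difference was 0.01 ± 0.10 (SE; 95% interval -0.21 to 0.23), or -0.03 without P467L replicate 4. At this level the array cannot show whether the transcript was present.

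Myot, which encodes the Z-disc protein myotilin, was above background in a single mouse. The nontransgenic mice had levels of 4.17, 4.12, 3.82, 3.87 and 3.82, and the P467L mice 3.98, 4.19, 3.98, 6.53, 3.82, 3.99 and 4.08. The value of 6.53 came from P467L replicate 4, the library with the high skeletal muscle markers, and all other mice of both groups overlapped. The difference was 0.41 ± 0.39 (SE; 95% interval -0.42 to 1.24) with that library and 0.05 without it.

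Actn2 encodes the α-actinin of the cardiac and skeletal Z-disc. The nontransgenic levels were 5.35, 5.32, 5.20, 5.29 and 5.18, just at or above background. Its P467L levels were 4.97, 4.92, 5.15, 5.46, 5.01, 4.96 and 4.87. The same P467L replicate 4 was the highest of all 12 mice, and the other 6 P467L mice lay below every nontransgenic mouse. The difference was -0.22 ± 0.10 (SE; 95% interval -0.43 to -0.01; limma adjusted p = 0.999).

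Without replicate 4 the Actn2 difference was -0.29 and the limma adjusted p was 0.296. The groups then no longer overlapped, but their nearest mice read 5.15 and 5.18, around the background of 5.18. On all 12 arrays 0.726% of genes separated, and the share without this library is not reported here. With the skeletal marker score as a covariate the difference was -0.27 (limma adjusted p = 0.375). That score was 2.18 in replicate 4 and -0.39 to 0.21 on the other arrays, so this fit largely repeats leaving replicate 4 out. The adjusted p ran from 0.296 to 1.00 over 23 alternatives, so Actn2 passed in none. The part of striated muscle tissue in the Myot and Actn2 values was not tested beyond these values. In bulk tissue, fewer cells of a type and less RNA per cell cannot be told apart.

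**Figure D2:**
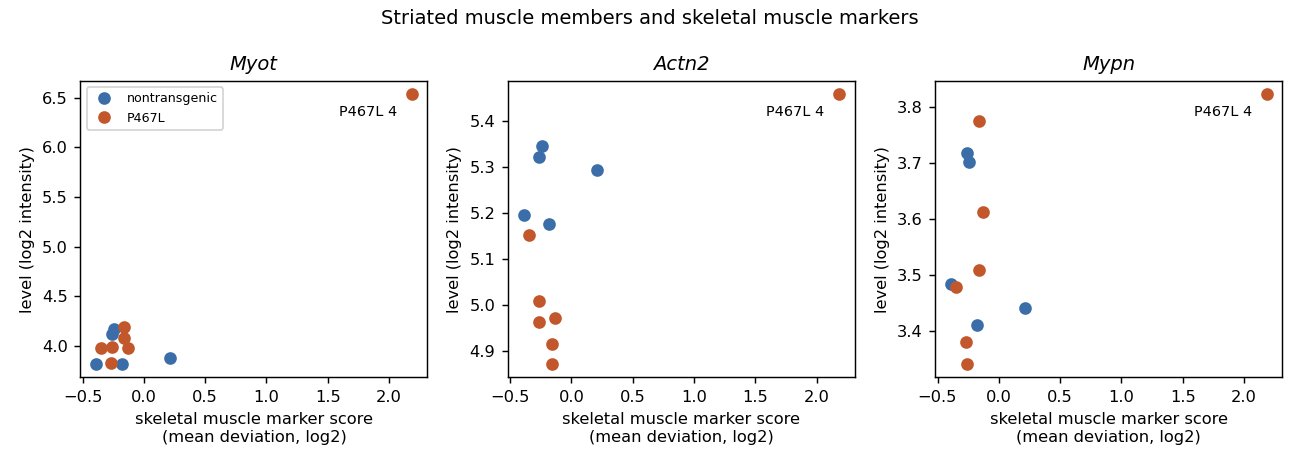
Level of Myot, Actn2 and Mypn (log2 intensity, vertical axes) against the skeletal muscle marker score of each array (horizontal axes, mean deviation on the log2 scale), 1 point per mouse. P467L replicate 4, with a score of 2.18, carries the highest value of each gene, 6.53 for Myot, 5.46 for Actn2 and 3.82 for Mypn.

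Actn1, the broadly expressed α-actinin of focal adhesions and stress fibres, was bright in all mice. Its nontransgenic levels were 10.27, 9.86, 10.09, 10.45 and 10.40, and its P467L levels were 10.05, 10.20, 9.89, 9.87, 10.28, 10.02 and 10.13. The ranges overlapped, since nontransgenic replicate 2 was the lowest of all mice while replicates 4 and 5 were the highest. The means of 10.22 ± 0.24 (SD, n = 5) and 10.06 ± 0.15 (SD, n = 7) differed by -0.16 ± 0.11 (SE; 95% interval -0.39 to 0.08). It was -0.24 without nontransgenic replicate 2 and -0.10 without nontransgenic replicate 4. Its other rows, with means of 9.80 and 6.56, differed by 0.02 and 0.00.

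Actn4, the second non-muscle α-actinin, had the narrowest interval of the 8. Its nontransgenic levels ran from 8.56 through a median of 8.76 to 8.90 and its P467L levels from 8.66 through 8.75 to 8.93. The groups lay on top of each other, with a difference of 0.00 ± 0.08 (SE) and a 95% interval of -0.16 to 0.16.

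Lasp1, a LIM and SH3 domain protein that binds palladin and actin, was also alike in level. Its nontransgenic levels ran from 5.61 through 5.97 to 6.09 and its P467L levels from 5.74 through 5.91 to 6.06, so the P467L range lay inside the nontransgenic one. The difference was -0.01 ± 0.09 (SE; 95% interval -0.20 to 0.18).

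Lpp is a zyxin-family LIM protein of focal adhesions and dense bodies that is abundant in smooth muscle. Its deviations followed those of the brightest Palld row more closely than those of the other partners did. Its nontransgenic levels were 9.45, 9.43, 9.45, 9.71 and 9.77, and its P467L levels were 9.09, 9.48, 9.39, 9.63, 9.75, 9.96 and 9.85. P467L mice held both the lowest and the highest values. The difference was 0.03 ± 0.14 (SE; 95% interval -0.27 to 0.33), and the other row, with a mean of 8.51, differed by 0.22. Over 12 arrays the deviations of Lpp and of the brightest Palld row from their group means correlated with r = 0.62, against -0.29 to 0.33 for the other 7 genes. Within the groups Lpp also correlated with the upper quartile of the arrays (r = 0.70), and that Palld row did so less closely (0.36). The part of the upper quartile in this likeness was not tested. The genes share the arrays, and these correlations are descriptions.

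Eps8, an actin-capping and bundling protein that binds palladin, lay near background. Its nontransgenic levels were 5.05, 4.99, 5.62, 5.06 and 5.04, and its P467L levels were 4.91, 5.20, 5.69, 5.06, 5.09, 5.18 and 5.04. Replicate 3 was the highest in both groups, and all other mice lay together. The difference was 0.02 ± 0.14 (SE; 95% interval -0.28 to 0.32). The replicate 3 arrays also had the highest macrophage and leukocyte marker score of their group, 0.36 and 0.27, and the highest fibroblast score, 0.26 and 0.10, with the lowest smooth muscle score, -0.11 and -0.22. The adipocyte score was 0.37 and 0.13, in the P467L group barely above 0.12 in replicates 1 and 2. The part of these markers in the Eps8 values was not tested.

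**Figure D3:**
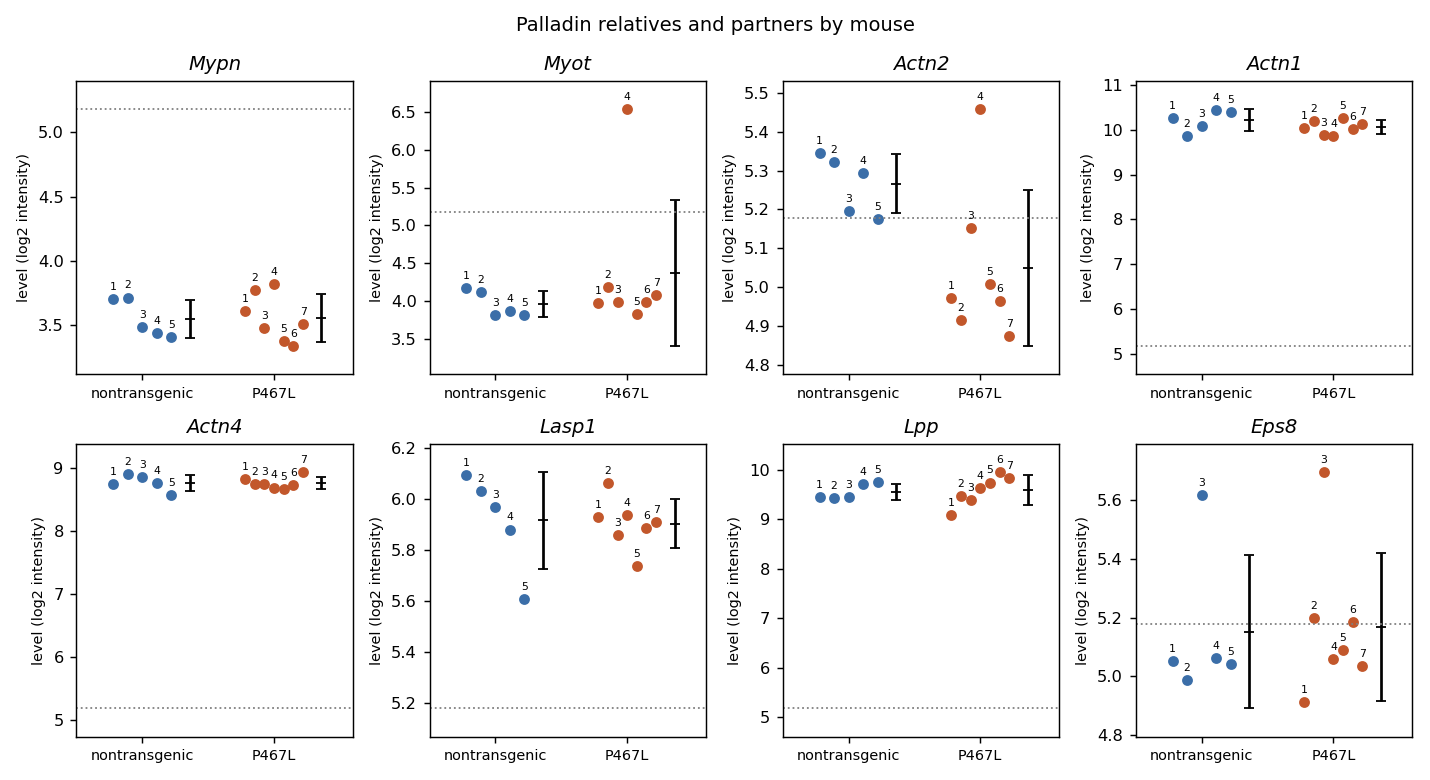
Level of the 8 other genes (log2 intensity, vertical axes with a scale of their own) in each mouse, with replicate numbers, mean ± SD in black and the background level of 5.18 as a dotted line. The groups overlap in every panel. P467L replicate 4 stands apart in Myot and is the highest mouse in Actn2, and replicate 3 of both groups stands apart in Eps8.

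For the 4 genes above background in both groups, Actn1, Actn4, Lasp1 and Lpp, the lower ends of the intervals lay between -0.39 and -0.16 and the upper ends between 0.08 and 0.33. Mypn, Myot, Actn2 and Eps8 lay at or under background on most arrays, and their intervals set no limit on a change of the transcript. A p above the threshold does not show that the levels were the same.

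**Figure D4:**
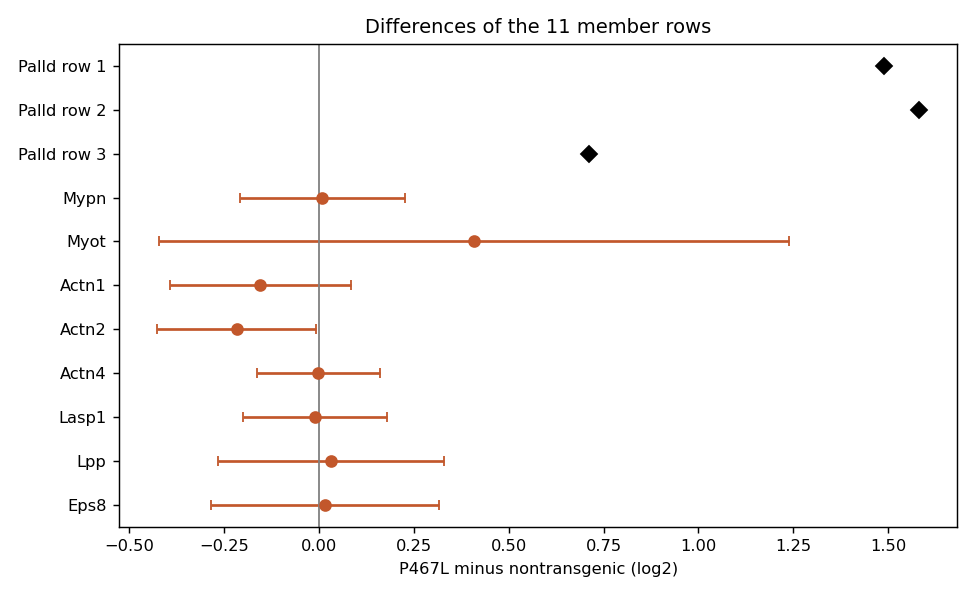
P467L minus nontransgenic (log2, horizontal axis) for the 11 rows. Diamonds are the Palld rows, at 1.49, 1.58 and 0.71, drawn without an interval since they are a description. Circles are the other genes with 95% limma intervals, which reach from -0.43 for Actn2 to 1.24 for Myot.

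Wider lists of the actin scaffold, 8 in all, gave 84 measured genes beside the 9. None passed the limma test in either direction, while 8 of 84 had an unadjusted p under 0.05, against 4.82% of all genes. At an adjusted p under 0.05 only 0.244% of all genes passed. A count of 0 among the 84, or in any list below, therefore says little. The median difference of the 84 was 0.02, against 0.00 for all genes, and 66 were above background in both groups. The groups did not overlap in 3 of the 84, Myoz2, Eps8l2 and Neb, where the share over all genes was 0.726%.

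Of 8 further proteins that bind palladin none passed, with differences from -0.07 to 0.46. Sorbs2, an adaptor of stress fibres and Z-discs, ran from 6.06 through 6.48 to 6.66 in nontransgenic and from 6.32 through 7.03 to 7.25 in P467L mice. The overlap came from P467L replicates 1, 2 and 3, at 6.53, 6.64 and 6.32, while the other 4 lay above every nontransgenic mouse. The difference was 0.46 ± 0.17 (SE; limma adjusted p = 0.729). Pdlim1, a PDZ-LIM protein that binds α-actinin and palladin, differed by 0.15 ± 0.11, or 0.09 without nontransgenic replicate 4.

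Of 19 actin crosslinking and bundling genes none passed, with a median of 0.02. Synpo, synaptopodin, differed by -0.27 ± 0.09 and Svil, supervillin, by 0.26 ± 0.10 (SE; limma adjusted p = 0.694 and 0.762). Of 21 PDZ-LIM, zyxin-family and other α-actinin-binding genes none passed either, and Zyx, zyxin, differed by -0.29 ± 0.10.

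Myoz2, a calsarcin that ties calcineurin to α-actinin at the Z-disc, had the largest difference of the 84. In nontransgenic mice it read 6.17, 5.96, 7.26, 7.05 and 7.30, and in P467L mice 4.37, 5.30, 5.90, 5.92, 5.72, 5.60 and 5.87. The groups did not overlap, but only 0.04 lay between P467L replicate 4 and nontransgenic replicate 2. The difference was -1.22 ± 0.30 (SE; limma adjusted p = 0.205). With the replicate number as a block it was -1.31 with a limma adjusted p of 0.0486, which passes, in a range of 0.0486 to 0.583 over 24 alternatives, of which this was the only one to pass. In that fit P467L replicates 6 and 7 have no partner, so it rests on 10 of the 12 arrays. Myoz2 is also 1 of the 11 measured cardiac markers. The cardiac score, which includes Myoz2, ran from -0.15 to 0.18 in nontransgenic and from -0.21 to 0.16 in P467L mice. It was lowest in P467L replicate 1, as Myoz2 was. Score and Myoz2 ranked the nontransgenic mice alike, but not the P467L mice. The part of cardiac tissue in the Myoz2 values was not tested.

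Eps8l2, a relative of Eps8, was higher in P467L. In replicates 1 to 5 of the nontransgenic group it read 5.85, 5.90, 5.56, 5.45 and 5.59, and its P467L levels ran from 5.97 through 6.08 to 6.17. The groups did not overlap, and the difference of 0.41 ± 0.09 (SE) had a limma adjusted p of 0.118. It passed with array upper quartiles as a covariate (0.0239) and with array weights (0.0403), and in none of the other 22 of 24 alternatives, with adjusted p up to 0.660. Abi1, another partner of Eps8, differed by 0.10 ± 0.08.

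Neb, the thin-filament ruler nebulin, was listed with its smaller relative Nebl. Its nontransgenic levels ran from 4.47 through 4.57 to 4.81, and its P467L levels from 4.86 through 4.95 to 7.49. The highest value was that of P467L replicate 4, and all others lay below background. The difference was 0.70 ± 0.38 (SE) with that library and 0.34 without it, and Nebl differed by -0.09 ± 0.09, or -0.14 to -0.03 with any 1 array left out.

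No gene passed among 8 Ena/VASP, profilin and formin genes, where Pfn2 differed by -0.14 ± 0.08 and Diaph2 by -0.19 ± 0.24. Diaph2 was lowest in P467L replicate 3, at 9.33, and differed by -0.04 without it, by -0.11 without P467L replicate 1 and by -0.29 without P467L replicate 5. Of 11 immunoglobulin-domain muscle genes none passed, with Myom1, myomesin, at -0.15 ± 0.07 and Mylk, myosin light chain kinase, at 0.12 ± 0.07. Of 12 genes in a list of SRF, MRTF and YAP factors, with Tead and Fhl genes among them, none passed and all were above background. Their differences ran from -0.13 to 0.12, with Wwtr1 at -0.12 ± 0.07 and Fhl2 at 0.12 ± 0.08. P467L replicate 4 had the highest Fhl2 level, 5.71, and the difference was 0.07 without it.

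**Figure D5:**
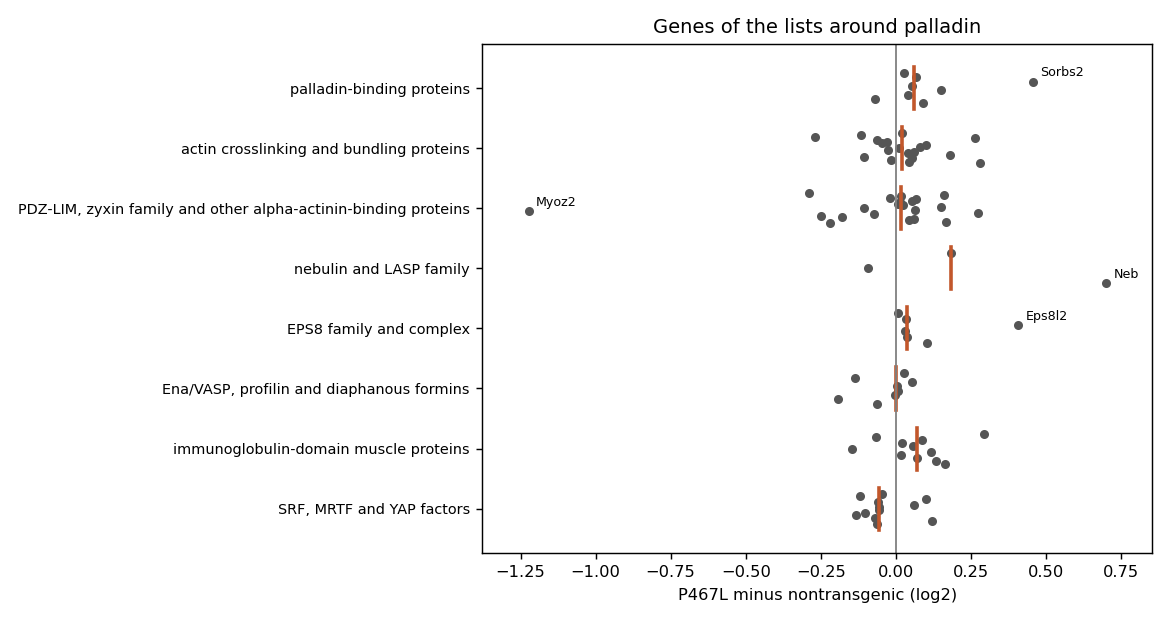
P467L minus nontransgenic (log2, horizontal axis) of each measured gene in the 8 lists around palladin, with the list median as a vertical bar. The list medians lie between -0.06 and 0.18, the latter for 3 nebulin-family genes, and Myoz2 at -1.22 and Neb at 0.70 lie farthest out.

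The genes whose pattern was most like that of the brightest Palld row were taken from 10428 genes above background. Over all 12 arrays they were Fn1, fibronectin (r = 0.96), Postn, periostin (0.95), Tnnc1, a troponin C (0.93), Sphkap, an anchor of protein kinase A (0.93), and Inpp4a, a phosphoinositide phosphatase (0.93). Likeness over both groups selects genes that differ between them, so their differences of 0.62, 0.68, 4.24, 1.44 and 0.72 get no test here. By deviations from the group means they were other genes, Abra, an actin-binding protein of muscle (0.93), Get3 (0.92), Anxa5, annexin A5 (0.92), Tmem117 (0.91) and Mtpn, myotrophin (0.90). These 5 differed between the groups by -0.17 to 0.00. All 10 values are descriptions over 12 arrays that the genes share. They rest on the brightest row, which may not report the sense transcript of Palld. Likeness to the dimmest row is not reported here.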

How the data were processed

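The deposited values are log2 intensities, 101175 rows by 12 arrays, none of them missing, with 0 columns from elsewhere. Per the submitters' processing notes the authors used RMA, Affymetrix Power Tools and mm9. No source used here gives versions, the probe set class or filters. RMA corrects background, normalizes across arrays and shrinks differences of dim genes. About 50 ng of RNA per mouse was amplified with a NuGen kit, per the labels' protocols. Medians of the arrays ran from 4.74 to 4.79 and their upper quartiles from 6.10 to 6.38. Precision is limited by how many arrays there are.

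Row names came from the platform annotation (22754 with 1 symbol, 1522 with several, not named, and 76899 with none there). The row with the highest mean stood for each of 19687 genes. P467L minus nontransgenic was fitted in limma 3.58.1 (R 4.3.3) by lmFit and eBayes on the 12 arrays, without covariates, with Benjamini-Hochberg adjustment over all genes, and tested on simulated data. The members, lists, markers and tests were chosen with earlier results of these data known. Named were the members, the 2 genes of each list with the smallest p, and the 5 genes most like Palld by each of the 2 correlations. Some of the 91 list entries are not reported here. Promoters of 7 of the 9 genes, 10 starts, were found in the RefSeq table.

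Arrays with the same replicate number deviated together (r between 0.227 and 0.398 in 5 pairs). Equal numbers were therefore treated as pairs in the Palld pair differences and in the replicate block alone. The main fit, with its p-values and intervals, did not pair the arrays. No label explains the numbers, and only the data speak for this pairing. The best partner carried the same number in 3 of 5 cases.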

Additional observations from a re-analysis of the deposited data

Results flagged for a closer look

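Single mice that stood apart from the rest of their group were looked for in 80 sets of values, each member row and named gene in each group, and 7 were found; chance gives about 5% of sets. In P467L replicate 4, Myot stood at 6.53 against 4.19 for the next mouse and Neb at 7.49 against 5.03. In replicate 3, Eps8 stood at 5.62 in the nontransgenic mouse against 5.06 for the next, and at 5.69 in the P467L mouse against 5.20. Myoz2 was low in P467L replicate 1, at 4.37 against 5.30. Myom1 was low in nontransgenic replicate 5, at 9.96 against 10.23, and Fn1 was high in nontransgenic replicate 4, at 10.34 against 10.16.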

How the results depend on the processing

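Over 24 alternatives the brightest Palld row differed by 1.26 (mean over its 3 rows) to 1.58, and 0 of the 8 other members passed in any (with genes above background alone, Mypn, Myot, Actn2 and Eps8 were not tested). With the replicate block its difference was 1.38. The count of genes past the threshold, 48, was 30 with the replicate block, 76 after quantile normalization, 106 with upper quartiles as a covariate, 23 with the skeletal muscle marker score as a covariate, 8 without the 3 arrays least correlated with the rest (nontransgenic replicate 2, P467L replicates 1 and 2), and 9 when all rows were tested. Leaving out 1 array gave 11 to 48. Further calls that changed were those of Myoz2 with the block and of Eps8l2, given with their values above; the block changed no other call among Acta2, Myh11, Tagln, Cnn1, the 8 members and the 84 list genes. Mypn, Actn4, Lasp1, Lpp and Eps8, all near 0, changed sign in 9, 11, 8, 5 and 6 alternatives and lay between -0.09 and 0.13. Pdlim1 and Mylk changed sign once each, Mylk to -0.15 with the mean over its rows. The cause of these changes was not tested. Mypn, Myot, Eps8 and the nontransgenic level of the dimmest Palld row lay at or under background, which limits what their values can show.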
